A study of Mus musculus with 60 samples.

Results

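The 10 genes of the fibroblast growth factor (FGF) system that are described here were Fgf1, Fgf2, Fgf9, Fgf10, Fgf11, Fgf13, Fgf14, Fgfr1, Fgfr2 and Fgfrl1. They were taken by name from the 46480 genes of the RNA-Seq count tables, through their Ensembl identifiers, and all 10 passed the filter on low counts that left 17040 genes. All are protein-coding genes in the Gencode annotation of mm10, the build of the positions given with each gene. The study measured how the dorsal and the ventral pole of the mouse dentate gyrus (DG), the input station of the hippocampus, differ in gene expression, and how rearing in an enriched environment (EE) changes either pole. Weaning of the male C57BL6J mice was on day 22. They then lived for 8 weeks in standard housing (SH), small cages with few mates, or in EE, a large cage with many mates and with running wheels and other objects. At 80 days of age, punches of 300 µm diameter were taken from the dorsal and the ventral DG as whole tissue, so that each library mixes granule neurons with glia, vessels and neighbouring cells. Each library pooled the tissue of several mice. Dorsal and ventral samples came from the same mice, but whether libraries with the same replicate number share their mice is not stated, so same-numbered pairs are counted here as a description. The groups were dorsal SH (n = 4), ventral SH (n = 4), dorsal EE (n = 5) and ventral EE (n = 5). No group carries a transgene or a drug treatment.

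FGFs that are secreted bind receptor tyrosine kinases together with heparan sulfate, and the receptors signal through adaptor proteins to the RAS and MAP kinase pathway. In the hippocampus this signalling is known for its role in neural stem cells, glia and synapse formation. A separate branch, the FGF homologous factors (FHFs) Fgf11, Fgf12, Fgf13 and Fgf14, is not secreted: FHF proteins stay in the neuron and bind voltage-gated sodium channels. Fgfrl1 resembles the receptors outside the cell and lacks the kinase domain.

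The 18 libraries held 22919364 to 28301861 counts on genes. SH replicate 3 was left out in both regions because the female transcript Xist was present there in a series of male mice, with 789 counts in dorsal and 308 in ventral DG against at most 16 in any other library. Of 12 marker lists of cell types, several differed between the poles. Of 6 granule cell markers 6 were higher in dorsal DG, with a summed level of 1125 to 1264 CPM (TMM-scaled counts per library of a fixed size, used for every level that is not given in FPKM) in dorsal SH against 667 to 759 in ventral SH, and 1047 to 1175 against 529 to 768 in EE. Of 8 astrocyte markers 5 were higher in ventral DG and 0 in dorsal DG, with overlapping sums of 7448 to 8752 and 8084 to 9675 CPM in SH and 6945 to 8534 and 7890.1 to 10910.0 in EE. All 8 choroid plexus markers were higher in ventral DG, with sums of 8.67 to 188 against 373 to 1075 CPM in SH and 9.17 to 53.9 against 404 to 1406 in EE. The top dorsal value came from SH replicate 1. The sum of 4 mossy cell markers was also higher in ventral DG without overlap, at 52.3 to 63.8 against 111 to 137 CPM in SH and 54.1 to 64.3 against 97.7 to 138 in EE, although 1 of the 4 genes was called toward each pole. The habenula and thalamus sum was higher in dorsal DG, at 159 to 215 against 100.5 to 114 CPM in SH and 144 to 196 against 95.5 to 127 in EE, with 2 of 5 tested genes called. The mural and fibroblast sum was higher in ventral DG, at 182 to 204 against 205 to 236 CPM in SH and 188 to 207 against 218 to 259 in EE. Of its 7 genes, 3 were called toward ventral and 1 toward dorsal DG. The sums of the other lists overlapped between the poles in SH or in EE, and no marker was at 0 in every library of a group. The part of these cell types in the region differences that follow was not tested, and in bulk tissue fewer cells of a type and less RNA per cell cannot be told apart.

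Levels were compared between genes in FPKM, which corrects for transcript length. The FHF gene Fgf13 was the most abundant of the 10, at 39.0 ± 2.76 FPKM (mean ± SD, n = 18). The receptor genes Fgfr1 and Fgfr2 followed at 20.3 ± 2.23 and 17.8 ± 1.54 FPKM, then Fgf1, a ligand that leaves the cell without a signal peptide, at 16.9 ± 1.83 FPKM. Fgf14 stood at 12.2 ± 1.28 FPKM and Fgfrl1 at 9.34 ± 0.878 FPKM. Fgf9 at 4.74 ± 0.789, Fgf11 at 3.93 ± 1.000, Fgf2 at 1.88 ± 0.266 and Fgf10 at 1.45 ± 0.383 FPKM were the low end. Fgf13 exceeded Fgfr1 in all 18 samples, Fgfrl1 exceeded Fgf9 in all 18, and Fgf11 exceeded Fgf2 in all 18. Other neighbours changed places between samples: Fgfr1 exceeded Fgfr2 in 14 of 18, Fgfr2 exceeded Fgf1 in 14, Fgf2 exceeded Fgf10 in 14, and Fgf9 exceeded Fgf11 in 10. Even the lowest count of any of these genes in a library was 96, for Fgf10, so that all 10 could be compared in every sample.

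The start-site windows of 4 genes are shown so that the genes that differed most between the poles can be seen beside one that differed in the opposite direction. Each window holds the 250 bases before a RefSeq transcript start, read 5′ to 3′ on the gene's strand, in the assembly GRCm38.p6, and capitals mark each CpG, the dinucleotide at which DNA methylation is maintained. Fgf11 (chr11:69802281-69802530, minus strand), Fgf10 (chr13:118714449-118714698, plus strand) and Fgfr2 (chr7:130266809-130267058, minus strand) were higher in ventral DG, and Fgf9 (chr14:58072436-58072685, plus strand) was higher in dorsal DG.
Fgf11: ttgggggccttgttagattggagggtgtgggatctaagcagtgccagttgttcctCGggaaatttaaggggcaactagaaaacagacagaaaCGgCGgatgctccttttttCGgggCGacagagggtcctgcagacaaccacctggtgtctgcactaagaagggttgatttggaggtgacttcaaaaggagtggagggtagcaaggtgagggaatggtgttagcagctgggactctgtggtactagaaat
Fgf10: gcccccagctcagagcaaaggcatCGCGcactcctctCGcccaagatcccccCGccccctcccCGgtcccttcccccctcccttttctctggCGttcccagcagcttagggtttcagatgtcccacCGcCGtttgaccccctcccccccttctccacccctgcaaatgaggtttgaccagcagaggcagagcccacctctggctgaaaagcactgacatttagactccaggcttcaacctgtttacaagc
Fgfr2: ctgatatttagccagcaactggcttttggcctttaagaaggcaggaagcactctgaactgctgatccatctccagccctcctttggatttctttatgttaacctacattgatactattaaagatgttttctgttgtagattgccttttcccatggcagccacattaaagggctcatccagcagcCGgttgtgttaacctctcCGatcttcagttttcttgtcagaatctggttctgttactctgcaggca
Fgf9: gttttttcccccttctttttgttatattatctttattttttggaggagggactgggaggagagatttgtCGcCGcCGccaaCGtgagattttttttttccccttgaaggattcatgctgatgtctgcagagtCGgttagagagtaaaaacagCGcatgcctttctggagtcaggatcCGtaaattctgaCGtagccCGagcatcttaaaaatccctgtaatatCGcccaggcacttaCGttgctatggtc
The Fgf11 window lies outside any gene of the Gencode annotation, upstream of the gene. The windows of Fgf10, Fgfr2 and Fgf9 touch no exon and lie inside longer transcripts of the same genes, and that of Fgf10 also inside Gm16263 on the other strand. They hold 5, 8, 2 and 11 CpGs in the order printed, against a median of 6 over 32851 windows of the same length. Of the 10 genes, 8 had entries (all but Fgf1 and Fgfr1), 11 in all, with 2 to 33 CpGs. The letters CAGATG, an E-box that basic helix-loop-helix factors such as NeuroD1 can bind, were searched on both strands and occur once in the Fgf10 window and in none of the other 3 printed. They occur in 2 of the 11 windows, and in 14.4% of all. The GC box GGGCGG, searched likewise, occurs in 6 of the 11 and in 32.7% of all, and the single match in the Fgf10 window does not overlap its E-box. A match describes the letters and not a bound site.

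Most of the 10 genes differed between the poles, in both directions. With SH and EE averaged, 8 of 10 passed an adjusted p of 0.05 in edgeR's quasi-likelihood test, 3 on the dorsal side and 5 on the ventral side. This share is to be read against 58.4% of all 17040 genes tested (29% toward dorsal DG and 29.3% toward ventral DG, and 62.2% at an unadjusted p under 0.05, which 8 of the 10 reached), and with 10 genes the share says nothing particular about this set. The log2 fold changes had a median size of 0.21 over the 10 genes and 0.19 over all genes tested. Fold changes are given as dorsal minus ventral, so that negative values mean more RNA in ventral DG. Within SH 5 of 10 passed the test, 2 toward dorsal and 3 toward ventral DG (41.7% of all genes, with 20.9% toward dorsal and 20.8% toward ventral DG). Within EE 6 of 10 passed, 1 toward dorsal and 5 toward ventral DG (46.5% of all genes, with 22.9% and 23.6%).

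**Figure D1:**
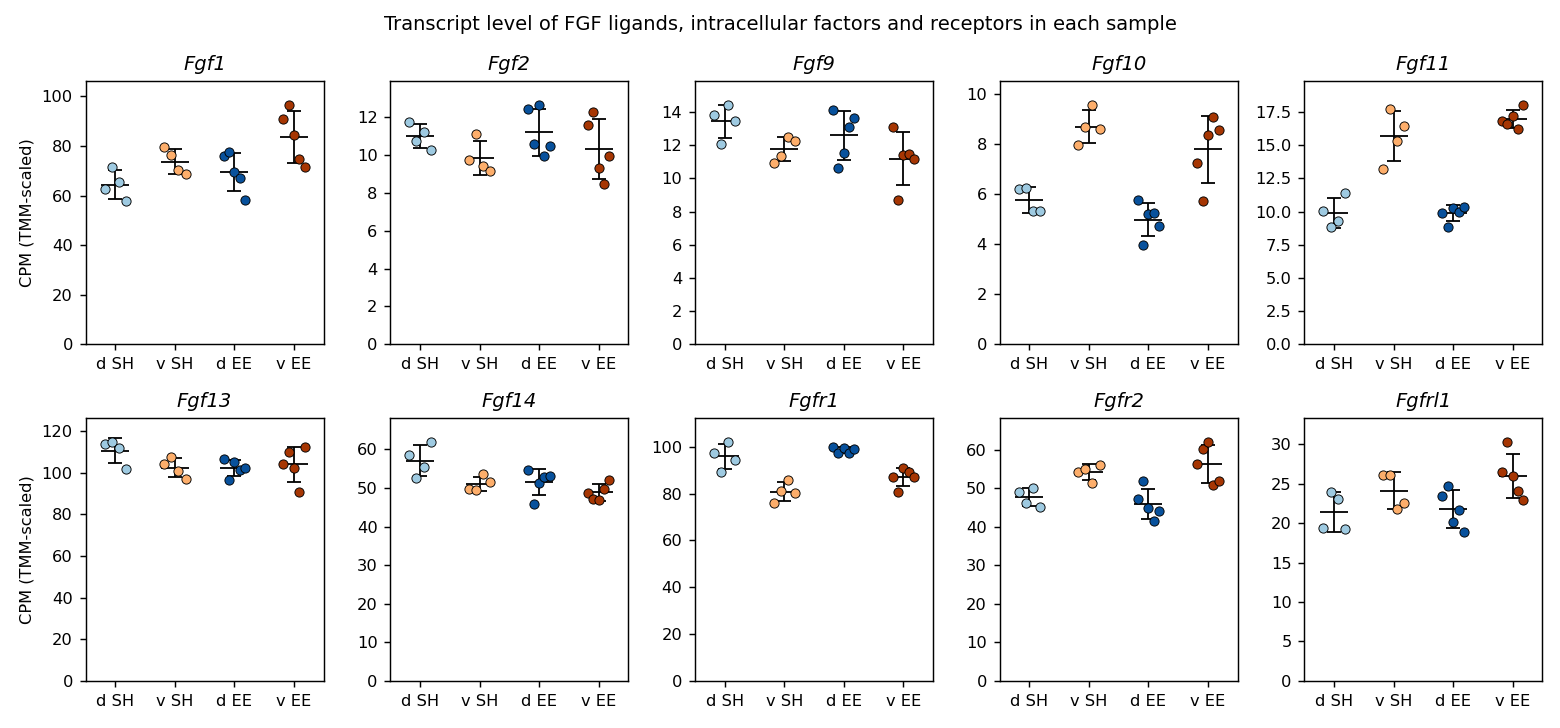
CPM on linear axes from 0 in each of the 18 samples, by group (d, dorsal; v, ventral), with the group mean (long bar) and SD (whiskers), for each of the 10 genes. The 9 dorsal points of Fgf11 all lie under the 9 ventral points, while those of Fgf13 and Fgf2 overlap widely.

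Among the 4 secreted ligands of the set, Fgf10 (ENSMUSG00000021732.13, chr13:118669791-118792115, plus strand), a growth factor that signals mainly through the b form of Fgfr2, showed the widest difference. The dorsal SH libraries held 6.20, 6.25, 5.34 and 5.32 CPM of Fgf10, and the ventral SH libraries 7.98, 8.68, 9.56 and 8.59. With EE, the values were 5.75, 3.98, 5.20, 5.26 and 4.72 CPM in dorsal and 7.26, 5.71, 8.35, 9.10 and 8.56 in ventral DG. The groups did not overlap in SH, and in EE a single ventral sample, replicate 2, fell just under the highest dorsal value. Fgf10 was 1.53-fold higher in ventral DG (log2 fold change -0.62 ± 0.082 (SE), edgeR quasi-likelihood adjusted p = 1.10e-06), higher there in 9 of 9 same-numbered pairs. Its change was -0.59 in SH and -0.65 in EE. TPM, the deposited measure per transcript length and library, was tested as log2(TPM + 1), a scale that shrinks the change of a gene this low and that moved the median of all genes by 0.16 toward dorsal DG. There the change was -0.19 with a limma adjusted p of 0.0576.

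Fgf1 (ENSMUSG00000036585.14, chr18:38838673-38929472, minus strand), which can activate all FGF receptors, was also higher in ventral DG. Fgf1 measured 62.5, 71.7, 65.4 and 57.7 CPM in dorsal SH and 79.6, 76.3, 70.4 and 68.5 in ventral SH. It measured 75.8, 77.5, 69.4, 66.9 and 58.4 CPM in dorsal EE and 90.7, 96.5, 84.3, 74.6 and 71.7 in ventral EE. The groups overlapped in both housings, and the ventral library exceeded the dorsal one in 9 of 9 same-numbered pairs. The difference was 1.17-fold (log2 fold change -0.23 ± 0.061 (SE), edgeR quasi-likelihood adjusted p = 0.00273). It passed the test in EE (-0.26, edgeR adjusted p = 0.0111) and not in SH (-0.20, edgeR adjusted p = 0.0886). The call ended on the log2(TPM + 1) scale, at -0.025.

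Fgf9 (ENSMUSG00000021974.13, chr14:58070547-58112720, plus strand), a ligand made by neurons and glia that acts mainly on the c forms of the receptors, went the other way. Dorsal SH libraries gave 13.8, 12.1, 14.4 and 13.4 CPM of Fgf9, against 10.9, 11.4, 12.5 and 12.3 in ventral SH. Dorsal EE libraries gave 14.1, 10.6, 11.5, 13.1 and 13.6 CPM, against 13.1, 8.69, 11.4, 11.5 and 11.2 in ventral EE. The groups overlapped in both housings, with the lowest value of all in ventral EE replicate 2. Fgf9 was 1.13-fold higher in dorsal DG (log2 fold change 0.18 ± 0.067 (SE), edgeR quasi-likelihood adjusted p = 0.0252), in 9 of 9 same-numbered pairs. The call depended on single replicates: the edgeR adjusted p was 0.084 without SH replicate 1 and 0.0583 without EE replicate 5. After the dominant short RNAs were taken out of the TPM, the limma adjusted p was 0.0831. Within SH and within EE it did not pass the test (edgeR adjusted p = 0.128 and 0.131).

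Fgf2 (ENSMUSG00000037225.12, chr3:37348346-37410108, plus strand), a ligand made largely by astrocytes and a known mitogen of neural stem cells, was not called. Its dorsal values ran from 9.95 to 12.6 CPM (median 10.7) and its ventral values from 8.47 to 12.3 (median 9.75), with n = 9 each. The regions overlapped widely, with the dorsal library higher in 7 of 9 same-numbered pairs. The difference was 0.14 with a 95% interval of -0.0047 to 0.28 (edgeR adjusted p = 0.0902). It passed by limma on log2(TPM + 1) (adjusted p = 0.0112), the scale that moved the median of all genes by 0.16 toward dorsal DG. After the dominant short RNAs were taken out of the TPM, it did not pass. It passed without EE replicate 2 (edgeR adjusted p = 0.0302), which left the value at 0.18.

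Of the FHF genes, Fgf11 (ENSMUSG00000042826.12, chr11:69796068-69801857, minus strand) had the widest region difference of all 10. In SH, Fgf11 was at 10.0, 8.80, 9.31 and 11.4 CPM in the dorsal libraries and at 13.2, 17.7, 15.4 and 16.5 in the ventral ones. In EE, Fgf11 was at 9.87, 8.87, 10.3, 9.95 and 10.4 CPM in dorsal and 16.8, 16.6, 17.2, 16.2 and 18.0 in ventral libraries. No dorsal sample reached the lowest ventral one: the highest dorsal value was 11.4 and the lowest ventral value 13.2 CPM. Fgf11 was 1.65-fold higher in ventral DG (log2 fold change -0.72 ± 0.058 (SE), edgeR quasi-likelihood adjusted p = 4.46e-10), -0.66 in SH and -0.78 in EE. It passed the test in every alternative tried for the mean of both housings, with values between -0.75 and -0.34, the latter on the log2(TPM + 1) scale, where it did not pass within SH or within EE.

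Fgf14 (ENSMUSG00000025551.12, chr14:123977907-124677127, minus strand), whose product binds sodium channels at the axon initial segment, was slightly higher in dorsal DG. The dorsal SH libraries held 58.5, 52.6, 55.3 and 62.0 CPM of Fgf14, and the ventral SH libraries 49.8, 49.4, 53.5 and 51.6. With EE, the values were 54.6, 45.9, 51.4, 52.8 and 53.2 CPM in dorsal and 48.6, 47.1, 46.7, 49.6 and 52.1 in ventral DG. The regions overlapped in both housings, the dorsal library being higher in 8 of 9 same-numbered pairs. The difference was 1.09-fold (log2 fold change 0.12 ± 0.038 (SE), edgeR quasi-likelihood adjusted p = 0.01). Counting without strand ended the call (edgeR adjusted p = 0.0688), as did both TPM scales, with and without the short RNAs. In SH the edgeR adjusted p rose from 0.0264 to 0.133 without SH replicate 1 and to 0.147 without SH replicate 5.

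Fgf13 (ENSMUSG00000031137.16, chrX:59062145-59568071, minus strand), the most abundant FHF gene, did not differ detectably. It ran from 96.6 to 115 CPM in dorsal DG (median 105) and from 91.0 to 112 in ventral DG (median 104), with n = 9 each. The ranges almost coincided. The difference was 0.044 with a 95% interval of -0.038 to 0.13 (edgeR adjusted p = 0.35). The remaining FHF gene, Fgf12, which is not among the 10, was at 21.4 ± 2.00 FPKM and was not called (log2 fold change -0.071 ± 0.042 (SE), edgeR adjusted p = 0.151). As a share of the summed FPKM of the 4 FHF genes, Fgf11 stood at 3.81% ± 0.436 (SD) in dorsal SH and 6.12% ± 0.603 in ventral SH, and at 4.09% ± 0.108 and 6.50% ± 0.0793 in dorsal and ventral EE. Fgf13 made up 52.1% ± 2.11 in dorsal SH and 49.9% ± 1.69 in ventral SH. These shares are descriptions and were not tested.

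**Figure D2:**
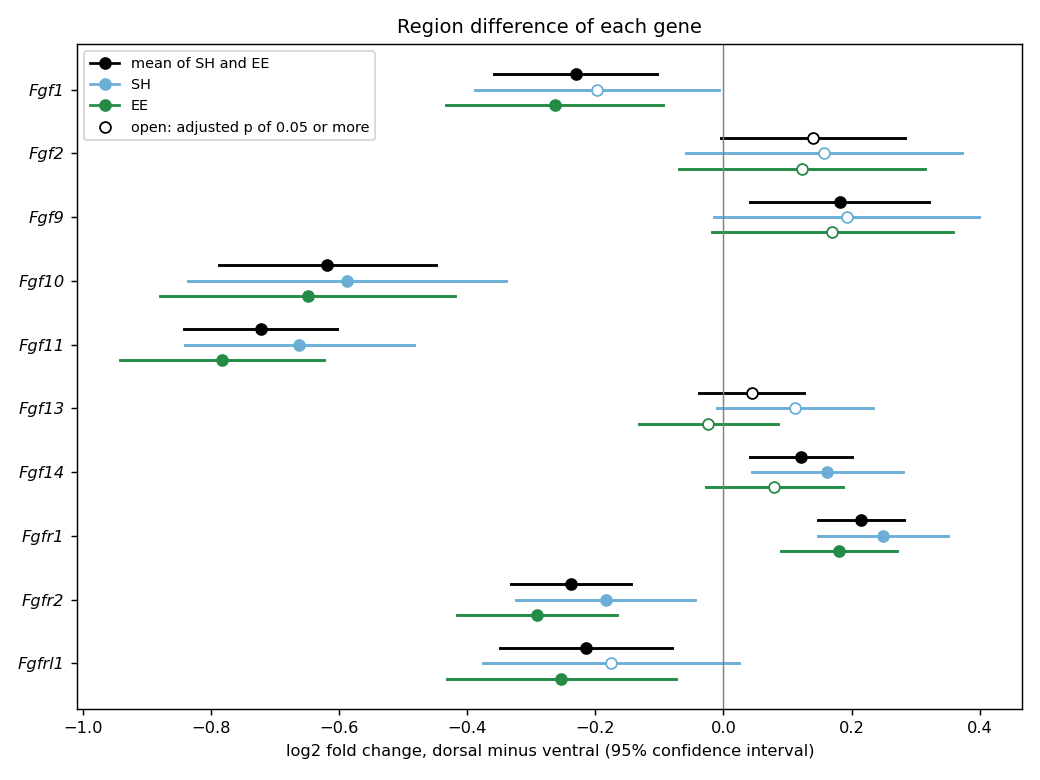
Log2 fold change (dorsal minus ventral, points) with its 95% confidence interval (lines) for each of the 10 genes, for the mean of both housings and within SH and EE. Fgf11 and Fgf10 lie farthest to the ventral side, at -0.72 and -0.62, and Fgfr1 lies farthest to the dorsal side, at 0.21, for the mean of both housings.

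The receptors were split. Fgfr1 (ENSMUSG00000031565.16, chr8:25513654-25575718, plus strand), a receptor expressed by hippocampal neurons, was higher in dorsal DG. Fgfr1 measured 97.5, 89.5, 102 and 94.5 CPM in dorsal SH and 75.9, 81.1, 85.7 and 80.3 in ventral SH. It measured 100.0, 97.3, 99.4, 97.2 and 99.3 CPM in dorsal EE and 87.1, 80.6, 90.8, 89.3 and 87.3 in ventral EE. The regions did not overlap within SH or within EE. Fgfr1 was 1.16-fold higher in dorsal DG (log2 fold change 0.21 ± 0.033 (SE), edgeR quasi-likelihood adjusted p = 7.41e-06), in 9 of 9 same-numbered pairs. For the mean of both housings it kept its call in the alternatives tried, except where a fold change of at least 20% was also asked for. Within SH and within EE it did not pass on either TPM scale.

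Fgfr2 (ENSMUSG00000030849.16, chr7:130162451-133123350, minus strand), a receptor of astrocytes and oligodendrocytes in the brain, was higher in ventral DG. Dorsal SH libraries gave 49.1, 46.2, 50.1 and 45.2 CPM of Fgfr2, against 54.3, 55.1, 51.2 and 55.9 in ventral SH. Dorsal EE libraries gave 47.3, 51.9, 44.96, 41.5 and 44.2 CPM, against 56.2, 60.3, 62.1, 50.8 and 51.8 in ventral EE. The groups did not overlap in SH, where ventral replicate 4 stood only just above the highest dorsal value, and in EE dorsal replicate 2 exceeded ventral replicates 4 and 5. Fgfr2 was 1.18-fold higher in ventral DG (log2 fold change -0.24 ± 0.045 (SE), edgeR quasi-likelihood adjusted p = 1.08e-04), in 9 of 9 same-numbered pairs. Within SH the edgeR adjusted p of 0.032 rose to 0.07, 0.126 and 0.174 without SH replicates 1, 2 and 5. On the log2(TPM + 1) scale the difference was -0.042 and was not called (limma adjusted p = 0.749).

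Fgfrl1 (ENSMUSG00000008090.13, chr5:108692382-108706924, plus strand), the receptor-like protein without a kinase, was higher in ventral DG as well. In SH, Fgfrl1 was at 19.4, 23.98, 23.1 and 19.2 CPM in the dorsal libraries and at 26.1, 26.1, 21.8 and 22.5 in the ventral ones. In EE, Fgfrl1 was at 23.5, 24.8, 20.1, 21.7 and 18.8 CPM in dorsal and 26.5, 30.3, 26.02, 24.1 and 22.9 in ventral libraries. The groups overlapped in both housings, and the ventral library was higher in 8 of 9 same-numbered pairs. The difference was 1.16-fold (log2 fold change -0.21 ± 0.065 (SE), edgeR quasi-likelihood adjusted p = 0.007). It passed the test in EE (edgeR adjusted p = 0.0194, and 0.0776 without EE replicate 3). In SH it did not (edgeR adjusted p = 0.152). Both TPM scales ended the call for the mean of both housings.

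Fgfr3, an astrocyte receptor gene that is not among the 10, was the most abundant receptor gene at 31.9 ± 4.56 FPKM. Its dorsal values ran from 98.0 to 123 CPM and its ventral values from 124 to 172, without overlap (log2 fold change -0.37 ± 0.054 (SE), edgeR adjusted p = 3.87e-06). The call of Fgfr3 ended on the log2(TPM + 1) scale (limma adjusted p = 0.108). Of the summed FPKM of the 3 kinase receptors, Fgfr1 took 33.3% ± 1.42 (SD, n = 4) in dorsal SH and 24.3% ± 2.14 in ventral SH, and 32.9% ± 1.35 and 26.3% ± 2.46 (n = 5) in dorsal and ventral EE. Fgfr3 took 41.8% ± 1.71 and 48.7% ± 2.43 in SH and 42.3% ± 1.22 and 48.7% ± 2.84 in EE, and Fgfr2 lay between 24.8% and 27.0% in the means of the 4 groups. The ranges of the Fgfr1 share did not overlap between the regions in either housing, the lowest dorsal share being 30.6% and the highest ventral one 29.0%. Fgfr4 was at 0.120 FPKM or less in every sample and was not tested.

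Within groups, several of these genes moved with the astrocyte markers. After taking out the 4 group means, the log2 level of Fgfr3 correlated with the summed astrocyte level at r = 0.93, that of Fgf1 at 0.87, Fgf2 at 0.83, Fgfrl1 at 0.81, Fgf13 at 0.65 and Fgfr2 at 0.55 (Pearson, 18 samples). Fgfr1 stood at -0.51, Fgf14 at -0.49 and Fgf9 at -0.48. Of the 8 markers of CA pyramidal cells, hippocampal neurons outside the DG, 4 were called toward dorsal and 4 toward ventral DG. The genes positive with the astrocyte sum were also positive with the sum of these CA pyramidal cell markers. There Fgfrl1 stood at 0.66, Fgfr3 at 0.59, Fgf1 at 0.58, Fgfr2 at 0.39, Fgf2 at 0.29 and Fgf13 at 0.28. Fgf9, Fgf10, Fgf11, Fgf14 and Fgfr1 lay between -0.55 and -0.23 with it. With the granule cell sum, Fgfr2 stood at -0.77, Fgfr3 at -0.65, Fgf1 at -0.62, Fgfrl1 at -0.61 and Fgf14 at 0.56. Of the 7 interneuron markers, 2 were called toward dorsal and 3 toward ventral DG. With the interneuron sum, which overlapped between the regions, Fgf1, Fgfrl1 and Fgfr3 stood at -0.82 each, Fgf14 at 0.68 and Fgf11 at 0.66. With the mossy cell sum, Fgf11 stood at 0.93 and Fgf10 at 0.83 over all 18 samples, regions included, and at 0.19 and 0.24 within groups. The choroid plexus sum gave values between -0.43 (Fgfrl1) and 0.18 (Fgf10) within groups, with 0.16 for Fgf11. Over all 18 samples, regions included, that sum gave 0.89 for Fgf11 and 0.81 for Fgf10. The granule cell sum gave -0.91 and -0.71 in the same way. These all-sample values hold the region difference of the gene and of the sum, so they are not particular to mossy cells. Among the 10 genes themselves, Fgf1 and Fgfrl1 deviated together at r = 0.91, and Fgf2 and Fgf13 at 0.71, while Fgf14 and Fgfrl1 deviated in opposite directions at -0.74. These are descriptions over samples that share library, depth and tissue makeup, and dorsal and ventral libraries share mice.

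**Figure D3:**
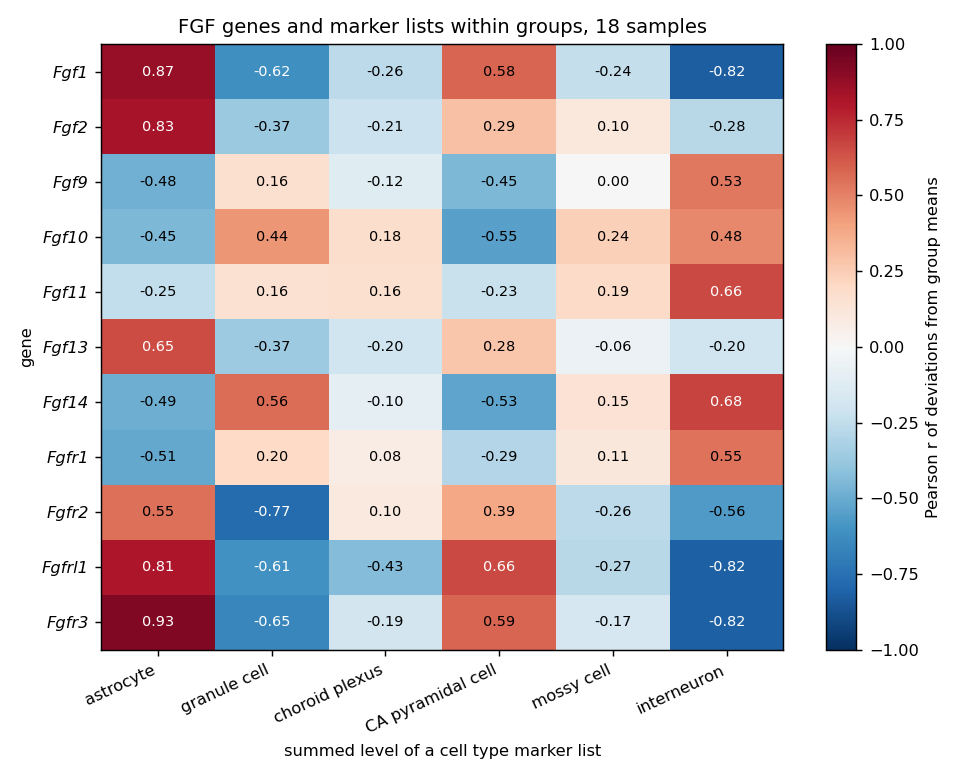
Pearson r between each gene (rows) and the summed level of a cell type marker list (columns), both as log2 deviations from the group means, over 18 samples. Red is positive and blue negative. In it, Fgfr3, Fgf1, Fgf2 and Fgfrl1 hold the most positive values with the astrocyte markers, from 0.81 to 0.93.

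Over the 18 samples, the genes whose log2 level was most like that of Fgf11 were Caln1 (Pearson r = 0.97, and 0.64 after taking out group means) and Krt77 (0.97 and 0.77). For Fgf10 they were Rgmb (0.94 and 0.75) and Spint2 (0.93 and 0.65). For Fgfr2 they were Ctnna1 (0.93 and 0.80) and Adap1 (0.92 and 0.85). For Fgf1 they were Rasl10b (0.96 and 0.92) and Mllt1 (0.95 and 0.93), which kept nearly all of their likeness within groups. They are the nearest of 14104 genes with a mean of at least 1 CPM.

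EE changed none of the 10 genes detectably in either region. In dorsal DG 0 of 10 passed the test, against 0.716% of all genes (0.411% higher and 0.305% lower in EE). In ventral DG it was also 0 of 10, against 0.246% (0.182% and 0.0646%). This held by edgeR's quasi-likelihood test, by DESeq2 and by limma on either TPM scale. At an unadjusted p under 0.05 in edgeR stood 1 gene in dorsal DG, Fgf14, against 8.81% of all genes, and 2 in ventral DG, Fgf1 and Fgfr1, against 7.58%. With so few genes called anywhere, 0 of 10 does not set these genes apart. The 95% intervals of the 10 genes lay between -0.47 and 0.30 in dorsal and between -0.38 and 0.36 in ventral DG (log2, EE minus SH).

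Fgf14 had the lowest p in dorsal DG, with -0.15 and an interval of -0.26 to -0.034 (edgeR adjusted p = 0.351). Its dorsal values, given with the region difference, overlapped between housings, with EE replicate 2 the lowest. Fgf13 followed, with -0.11 in dorsal DG (edgeR adjusted p = 0.58) and 0.022 in ventral DG. In ventral DG, Fgfr1 stood at 0.11 with an interval of 0.012 to 0.20 (edgeR adjusted p = 0.589), and Fgf1 at 0.18 with 6.1e-05 to 0.36 (0.657). Both overlapped between housings in every region. Fgf10 had the largest point estimate in dorsal DG, -0.21, with an interval of -0.47 to 0.039. The EE effects of the regions did not differ detectably for any of the 10: 0 passed the edgeR test of the difference at an adjusted p of 0.05 or at an unadjusted one, against 0.00587% of all genes at the former and 3.25% at the latter, and the lowest unadjusted p was 0.0988, for Fgf13, in edgeR's model across all genes.

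**Figure D4:**
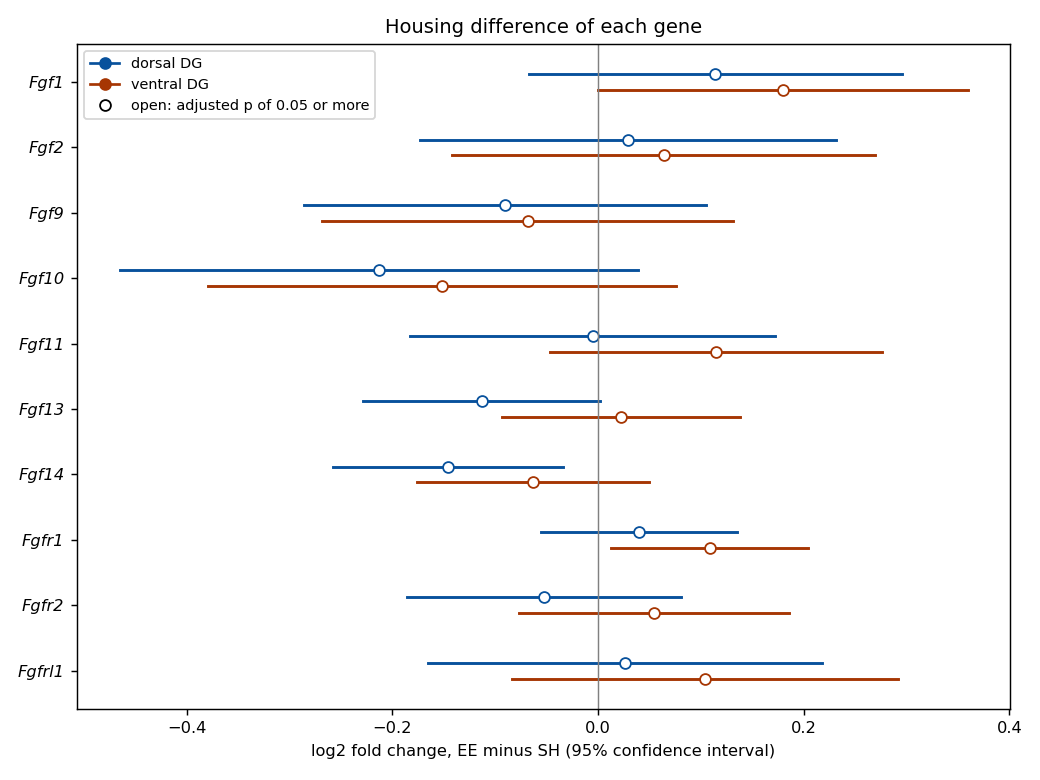
Log2 fold change (EE minus SH, points) with its 95% confidence interval (lines) for each of the 10 genes in dorsal and ventral DG. All points are open, none having an adjusted p under 0.05, and the 3 intervals that exclude 0 are those of Fgf14 in dorsal and of Fgfr1 and Fgf1 in ventral DG.

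Of the other 21 genes of the family, 12 failed the filter on low counts, the ligands Fgf3, Fgf4, Fgf6, Fgf7, Fgf8, Fgf15, Fgf17, Fgf20, Fgf21 and Fgf23 with Fgfr4 and the binding protein Fgfbp1, with at most 11 counts in a library. Of the 9 tested, Fgf16 and Fgf5 were higher in dorsal DG and Fgfr3 and Kl in ventral DG (29% and 29.3% of all genes). Fgf16, a ligand of the Fgf9 subfamily, was low, from 0.617 to 1.83 CPM in dorsal and from 0.235 to 0.589 in ventral DG, without overlap (log2 fold change 1.32 ± 0.213 (SE), edgeR adjusted p = 1.45e-05). Fgf5, a ligand known from the hair cycle, was higher in dorsal DG too (log2 fold change 0.37 ± 0.085 (SE), edgeR adjusted p = 7.00e-04), its ranges overlapping. The call of Fgf5 ended on both TPM scales (limma adjusted p = 0.0576 and 0.102). Kl, the co-receptor of endocrine FGFs and a gene of the choroid plexus, was higher in ventral DG (log2 fold change -0.95 ± 0.148 (SE), edgeR adjusted p = 1.04e-05), as were all 8 choroid plexus markers. Its ranges overlapped, with 16.5 to 26.9 CPM in dorsal and 22.0 to 55.3 in ventral DG. The part of the choroid plexus in the Kl difference was not tested. Fgf12, Fgf18, Fgf22, Klb and Fgfbp3 were not called, with values from -0.13 to 0.15. For EE, 0 of the 9 passed the edgeR test in either region, against 0.716% of all genes in dorsal and 0.246% in ventral DG.

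Genes that FGF signalling induces, or that restrain it, were called in both directions. Of 15 measured, 5 were called toward dorsal and 7 toward ventral DG, where all genes gave 29% and 29.3%, with a median log2 fold change of -0.095 against -0.0046 over all genes. Spry1 and Spry2, intracellular inhibitors of receptor signalling, were higher in dorsal DG, at 0.58 ± 0.055 and 0.36 ± 0.04 (log2 fold change ± SE). Etv1 and Etv5, ETS transcription factors that FGF induces, were higher in ventral DG, at -0.73 ± 0.066 and -0.35 ± 0.034, and so was Il17rd (Sef), a membrane inhibitor of FGF receptors, at -0.65 ± 0.057. None of these 5 overlapped between the regions, but they were picked as the genes of the list with the smallest p. The share of all genes without overlap was not counted. The edgeR adjusted p lay between 2.20e-09 and 8.07e-08. The Etv5 call ended on the log2(TPM + 1) scale (limma adjusted p = 0.32).

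Enzymes that build and edit heparan sulfate, the co-factor of secreted FGFs, included Hs3st2, which had the largest region difference of any gene in these lists. Of 20, 11 were called toward dorsal and 6 toward ventral DG (29% and 29.3% of all genes), with a median of 0.11 against -0.0046 over all genes. Hs3st2, a 3-O-sulfotransferase, ran from 0.215 to 0.539 CPM in dorsal and from 1.65 to 3.34 in ventral DG, a log2 fold change of -2.70 ± 0.163. Sulf2, which removes 6-O-sulfates outside the cell, was also higher in ventral DG at -0.76 ± 0.063. The N-deacetylase/N-sulfotransferase Ndst4 at 1.01 ± 0.064, the 6-O-sulfotransferase Hs6st1 at 0.53 ± 0.04 and the epimerase Glce at 0.35 ± 0.036 were higher in dorsal DG. The regions did not overlap for any of these 5, again picked by the smallest p of the list, with edgeR adjusted p between 3.67e-12 and 3.90e-08.

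Of 10 measured sodium channel genes and other partners of the FHF proteins, 6 were called toward dorsal and 1 toward ventral DG (29% and 29.3% of all genes), with a median of 0.32 against -0.0046 over all genes. The sodium channel subunit genes Scn4b at 1.101 ± 0.067, Scn3a at 0.67 ± 0.055, Scn8a at 0.45 ± 0.043 and Scn3b at 0.33 ± 0.043 and the calcium channel gene Cacna1a at 0.55 ± 0.036 had edgeR adjusted p between 3.94e-12 and 1.19e-06. These genes are neuronal, and the granule cell marker sum was higher in dorsal DG in every library. Among the FHF genes themselves the directions were mixed, with Fgf14 on the dorsal side and Fgf11 on the ventral side.

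Receptor adaptors and effectors showed small differences. Of 20, 9 were called toward dorsal and 6 toward ventral DG (29% and 29.3% of all genes), with a median of 0.060 against -0.0046 over all genes. The phospholipase Plcg1 at 0.25 ± 0.036 and the phosphatase Ptpn11 (Shp2) at 0.21 ± 0.039 were higher in dorsal DG, while the kinase Map2k2 at -0.20 ± 0.04 and the adaptor Frs3 at -0.26 ± 0.055 were higher in ventral DG, with edgeR adjusted p between 3.95e-06 and 3.09e-04. On the log2(TPM + 1) scale the calls of Frs3 (limma adjusted p = 0.187) and of Map2k2, whose value was near 0 there, ended, and that of Map2k2 also ended on the rescaled TPM (0.131). For EE, 0 genes of these 4 lists passed the edgeR test in either region, as was so for the 10 FGF genes. Of all genes, 0.716% passed it in dorsal and 0.246% in ventral DG.

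**Figure D5:**
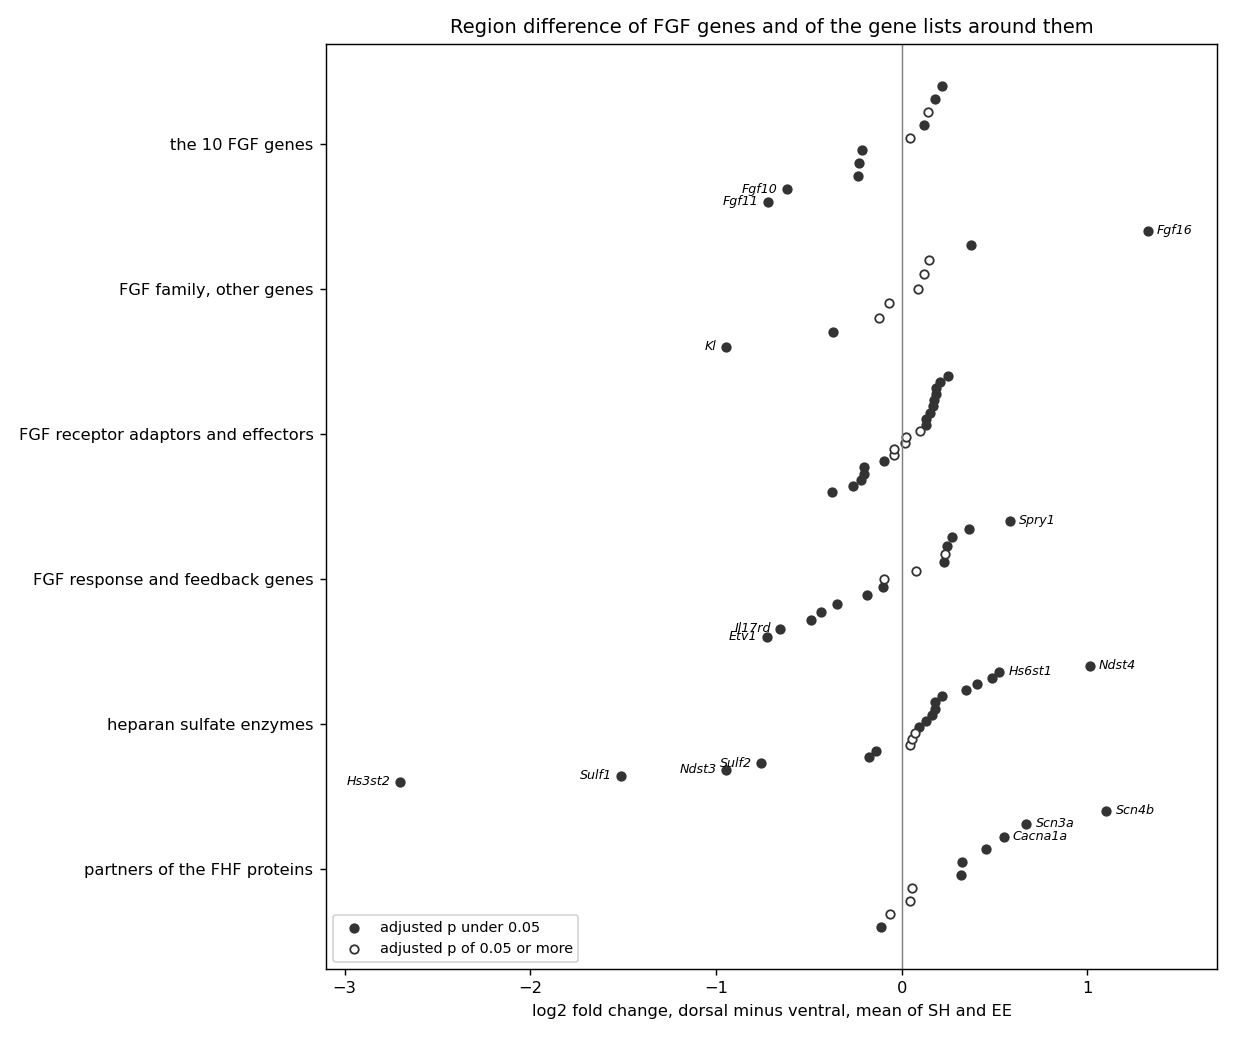
Log2 fold change (dorsal minus ventral, mean of SH and EE) of every tested gene of the 10 FGF genes and of 5 lists around them, one point per gene, named where the change is large and filled where the edgeR adjusted p was under 0.05. Each list holds points on both sides of 0, and the partners of the FHF proteins lie mostly to the right.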

How the data were processed

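RNA-Seq of dorsal and ventral DG was analysed in 18 of 20 libraries, grouped by the labels. Per the labels' processing notes, the authors trimmed reads with Trim Galore 0.4.0, aligned them to mm10 with STAR 2.5.1b and estimated abundance with RSEM 1.2.30. The deposited files hold stranded and unstranded read counts per gene (whole counts, of which the stranded column was used) and RSEM's expected counts, TPM and FPKM. The deposited TPM sum is dominated by 5 short RNAs (Rn7s1, Rn7s2, Rn7sk, Rny1 and Rny3, 57.9% to 71.9%), so counts were the main scale and FPKM was used between genes.

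The filter kept a gene with over 10 counts in 2 or more samples, as the authors did. A model of the 4 groups was fitted with edgeR 4.0.16 (TMM size factors, quasi-likelihood test, Benjamini-Hochberg over 17040 genes, threshold 0.05), after a test on simulated data. DESeq2 1.42.0 and limma 3.58.1 were alternatives. Libraries held 22919364 to 28301861 counts. Expected counts were rounded to whole numbers for one alternative. TPM had a pseudocount of 1.

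Dorsal and ventral samples came from the same mice, per the study's description, which does not tie replicate numbers across the regions. The fit without the number was the main one, and the fit with it as a block an alternative.

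All members of the named list are described. In the likeness comparison the 4 members with the largest region change among those called were used, with 2 genes each. From each list around them at most 5 called genes with the smallest p are named, and every tested gene of the wider family. Of the genes this rule names, 1 is not reported here. The members and lists were chosen with earlier results of these data known. Gene names came from Gencode vM21 and promoter windows from RefSeq. Of the listed symbols, Spry3 and Scn2a1 were not matched. Antisense genes overlap Fgf2, Fgf10, Fgf14, Fgfr1 and Fgfr2, and counting used strand. MethylC-Seq and TAB-Seq samples were not analysed here.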

Additional observations from a re-analysis of the deposited data

Results flagged for a closer look

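The Xist RNA, made from the inactive X chromosome of female cells, was present in both libraries of SH replicate 3 of this male series, with 789 counts in dorsal and 308 in ventral DG against 0 to 16 in the other 18. These libraries entered none of the comparisons above. In the 40 sets of values of the 10 FGF genes by group, no sample stood apart from its group by Dixon's test.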

How the results depend on the processing

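Of the 10 FGF genes, 8 were called between the regions for the mean of both housings, 5 in SH and 6 in EE. A fold change of at least 20% left 2 and 2 in the first 2, and 5573 of 9949 genes overall and 5086 of 7924 in EE. limma on log2(TPM + 1) left 4, 1 and 0 of the 10 and 5109, 1970 and 1734 genes overall (SH 7103 in the main test). After the 5 short RNAs were taken out of the TPM, an alternative chosen after seeing the data, 5, 1 and 2 were left, and 6035, 2773 and 3573 genes. The TPM scale moved the median of all genes by 0.16 (region), -0.21 (EE, dorsal) and -0.14 (EE, ventral) on the log2 scale, and the share of region calls on the dorsal side from 49.7% to 78.7%, against 54.9% after the short RNAs were removed. Map2k2 changed sign there, to 0.0019 for the mean and 0.043 in EE.

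Whether same-numbered dorsal and ventral libraries share their mice is not stated. Their deviations from group means correlated at a mean r of 0.083 (-0.084 to 0.19, 4 of 9 pairs over 0.1, 10 of 18 libraries best with their own number). With the replicate number as a block, 8 of the 10 were called in SH, Fgf1 (edgeR adjusted p = 0.00176), Fgf9 (0.0278) and Fgfrl1 (0.0384) being added, Fgf9 was added in EE (0.0274), and Fgf2 for the mean (0.0461). The block ended no call of the 10 and changed no other. For EE, where the number was likewise not stated to pair the mice (mean r = 0.13, 7 of 8 pairs over 0.1, 9 of 16 libraries correlating best with their own number), the block raised the genes called from 122 to 243 in dorsal, from 42 to 105 in ventral DG and from 1 to 2 for the difference, and DESeq2 gave 188 in dorsal and 85 in ventral DG. No filter gave 80 in ventral DG. log2(TPM + 1) gave 7, 0 and 0, and the rescaled TPM 11, 2 and 0. The 10 FGF genes stayed at 0 called for EE in all of these.

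Leaving out 1 replicate number at a time, in both regions, gave 7 to 9 of the 10 for the mean, 3 to 6 in SH (fewest without SH replicate 1 or 5) and 5 to 6 in EE, with 9019 to 9974, 5254 to 7656 and 6695 to 7910 genes overall. For EE it gave 74 to 130 genes in dorsal, 18 to 50 in ventral DG and 0 for the difference, and 0 of the 10. The dorsal count fell by over 1.5 times without each of SH replicates 1, 2, 4 and 5 (80, 79, 74 and 77 genes), the ventral count without SH replicate 2 (24), SH replicate 4 (18) and EE replicate 3 (26). For the mean of both housings, RLE size factors, filterByExpr, no filter, rounded expected counts and all 20 libraries changed no call of the 10. In SH, all 20 libraries added Fgf1 (edgeR adjusted p = 0.049) and Fgfrl1 (0.0493) and ended Fgf14.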

Other observations

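In the left-out SH replicate 3, the levels of the 10 FGF genes were set beside those of the other SH replicates, on size factors from all 20 libraries. Of 20 values, 9 fell outside the range of the 4 other replicates. Fgf11 was at 8.76 CPM against 8.79 to 11.4 in dorsal and 17.5 CPM against 13.2 to 17.7 in ventral DG, and Fgf10 at 5.63 CPM against 5.32 to 6.25 and 7.68 CPM against 7.97 to 9.55, both again higher in ventral DG. Fgfr2 stood at 53.3 CPM against 45.1 to 50.1 in dorsal DG. Fgf13 was higher in ventral DG in this replicate, with 100.2 CPM against 102 to 115 in dorsal and 115 CPM against 96.8 to 108 in ventral DG.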
